A study of Mus musculus with 4 samples.

Results

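Specific-granule immature neutrophil-like cells were taken from MDSCs (myeloid-derived suppressor cells) grown from mouse bone marrow. They were selected on 4 genes of the specific granule, Ltf, Camp, Ngp and Cd177, as the 10% of cells with the highest mean of these genes after each cell was scaled to 10000 UMIs and log-transformed. A UMI (unique molecular identifier) marks 1 captured RNA molecule. The rule took 930 of the 9303 cells that had at least 200 genes and at most 10% of UMIs from mitochondrial genes, of 9525 cells in the files. Marrow cells of all 4 cultures were kept with 40 ng/ml of the cytokines GM-CSF and IL-6, and live CD11b+ cells were sorted on day 4. The study's methods have the cells tagged and pooled before loading on the 10X platform, and the files hold 1 count matrix per culture, here called its library. The cultures came from WT mice or from B2AR-/- (knockout, KO) mice, on a C57BL/6 background, and held either PBS (0 µM isoproterenol) or isoproterenol (ISO, 10 µM), an agonist of β-adrenergic receptors. They are called WT+PBS, WT+ISO, KO+PBS and KO+ISO. The treatment field of the labels gives isoproterenol for all 4 samples, and the titles and the study's methods were followed instead.

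Each group was 1 library, so there was no replicate and no test was made. Shares carry 95% exact Clopper-Pearson intervals, and ratios carry 95% intervals from the exact binomial split of their UMIs. Both hold counting error alone, and differences between cultures or mice are not in them. The specific-granule cells held 1283956 UMIs in WT+PBS, 2488552 in WT+ISO, 1552952 in KO+PBS and 1438446 in KO+ISO. Their median UMIs per cell were 6438.5, 7622, 6000 and 6352.5 in the same order. WT+ISO was thus the deepest of the 4 both here and in all other kept cells, whose medians were 8700.5, 11620, 8782 and 7789. No cell barcode was shared between libraries. Of the multiplexing tag UMIs in these cells of KO+ISO, 14.2% belonged to other cultures, against 3.45% to 7.97% in the other 3 libraries. KO+ISO also had the fewest tag UMIs in these cells, 104539 against 167687 in WT+PBS, 356894 in WT+ISO and 354365 in KO+PBS. Xist was present in all 4 libraries (278, 611, 299 and 313 UMIs), and the Y-linked genes Ddx3y, Eif2s3y, Kdm5d and Uty were at 0 UMIs in all of them.

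Neutrophils fill their granules in a fixed order as they mature in the marrow. Promyelocytes make azurophil granules with myeloperoxidase and serine proteases, myelocytes and metamyelocytes then make specific granules with lactoferrin and cathelicidin, and band and segmented cells make gelatinase granules and express receptors for release into blood. Division stops between the myelocyte and the metamyelocyte. The transcription factor C/EBPε (Cebpe) drives the specific granule genes. Cells of these stages make up much of the granulocytic MDSC compartment.

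The upstream sequences of 3 of the genes that chose the cells are shown because C/EBP factors bind many granule gene promoters. Ltf (lactoferrin, an iron-binding protein), Camp (the cathelicidin precursor) and Ngp (neutrophilic granule protein) all lie on chromosome 9, at chr9:111019292-111042766, chr9:109847377-109849456 and chr9:110419808-110423012. Cd177, a surface glycoprotein, lies at chr7:24743983-24760334. The sequences are the 250 bases before the annotated start in RefSeq on GRCm38.p6, the assembly that the submitters' processing notes call mm10. They cover chr9:111019042-111019291 (+ strand), chr9:109849457-109849706 (- strand) and chr9:110419558-110419807 (+ strand). Capitals mark matches to TTNNGNAA, a C/EBP-like pattern, on either strand.
Ltf: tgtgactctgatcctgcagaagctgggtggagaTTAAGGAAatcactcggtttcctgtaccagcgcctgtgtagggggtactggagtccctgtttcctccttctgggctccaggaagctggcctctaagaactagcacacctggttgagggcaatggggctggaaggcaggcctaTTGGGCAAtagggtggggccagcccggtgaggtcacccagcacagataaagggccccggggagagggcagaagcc
Camp: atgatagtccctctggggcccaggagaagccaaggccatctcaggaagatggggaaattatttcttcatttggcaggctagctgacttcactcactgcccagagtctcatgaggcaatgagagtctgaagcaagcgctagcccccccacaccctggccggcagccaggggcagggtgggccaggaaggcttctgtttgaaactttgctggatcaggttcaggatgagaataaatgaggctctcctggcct
Ngp: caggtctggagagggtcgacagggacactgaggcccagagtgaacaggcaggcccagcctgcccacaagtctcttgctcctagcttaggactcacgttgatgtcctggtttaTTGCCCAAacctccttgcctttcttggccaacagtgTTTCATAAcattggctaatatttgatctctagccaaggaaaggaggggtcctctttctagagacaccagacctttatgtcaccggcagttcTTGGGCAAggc
Ltf held 2 matches, Ngp 3 and Cd177 1, and Camp had none of these letters in this window. The Cd177 window, not shown, was chr7:24760312-24760561 (- strand) and reached into the gene span given above. The pattern was present in 36.8% of all 32851 RefSeq upstream windows of this length, so a match in 3 of 4 genes describes the sequences and marks no binding site.

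All 4 genes were found in nearly every selected cell, with 1 cell each in WT+ISO and KO+PBS without a Cd177 UMI. Median Ngp per cell was 364, 397, 372 and 368 UMIs per 10000 in WT+PBS, WT+ISO, KO+PBS and KO+ISO, median Camp 126, 139, 139 and 147, median Ltf 107, 102, 99.0 and 91.5, and median Cd177 11.7, 10.9, 12.99 and 11.7. These levels were set by the selection and are given as a description. The score is a range and not a separate class. The last cell inside had a score of 4.1395 and the first outside 4.1391, while the highest score was 5.0943 and the median of all kept cells 0.771. Within 0.1 of the threshold lay 185 selected and 169 other cells. After thinning to 2000 UMIs, a Camp UMI was seen in 100% of the selected cells of each library and in 7.10%, 8.06%, 7.05% and 9.46% of cells chosen in the same way on the macrophage genes C1qa, C1qb, C1qc and Mrc1. The latter had median depths of 14862, 16921, 12346 and 13104 UMIs. Their Camp may be free RNA or come from doublets, which cannot be told apart here, and its level was 42.0, 48.3, 189 and 133 CPM.

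The share of specific-granule cells was higher in the ISO library than in the PBS library of WT cells and less clearly so in KO cells. It was 8.05% (6.95% to 9.27%; 178 of 2210 cells) in WT+PBS and 13.4% (12.01% to 14.9%; 303 of 2264) in WT+ISO. In KO+PBS it was 8.71% (7.69% to 9.82%; 243 of 2790) and in KO+ISO 10.1% (8.83% to 11.5%; 206 of 2039). The intervals of the WT pair do not overlap and those of the KO pair do. The share ratio of ISO to PBS was 0.73 (0.46 to 1.01) on the log2 scale in WT and 0.21 (-0.06 to 0.49) in KO. With cells thinned to 2000 UMIs the shares were 8.13%, 12.8%, 8.59% and 10.8%, which left the order of the libraries as it was. That thinning kept 8593 cells, left out 6, 4, 12 and 6 of the selected cells, and chose 859 cells, of which 753 were among the original 930. No doublet caller was run and no doublet was removed.

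**Figure D1:**
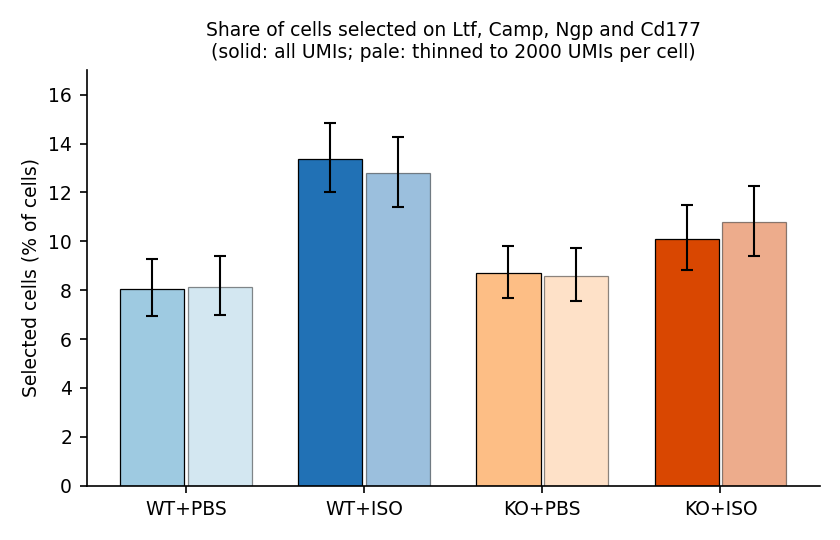
Share of kept cells (%) selected on the 4 specific granule genes in each library, with exact 95% intervals. Solid bars use all UMIs and pale bars cells thinned to 2000 UMIs; WT+ISO stands highest in both, at 13.4% and 12.8%.

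Genes outside the rule were set beside those of cells scored for the stages before and after, all without the 930 cells themselves. None of the 930 was among the 10% of cells highest in Mpo, Elane, Prtn3 and Ctsg, the azurophil genes. Mpo (myeloperoxidase) was at 5.45, 4.82, 5.80 and 3.48 CPM in WT+PBS, WT+ISO, KO+PBS and KO+ISO, against 1598, 1164, 1483 and 864 in those azurophil-score cells. Elane (neutrophil elastase) was at 51.4, 32.5, 30.3 and 25.7 CPM, against 5704, 5254, 6309 and 4850. Cells chosen on Retnlg, Mmp9, Mcemp1 and Cxcr2 (829 late-score cells) had Mpo at 7.20, 3.02, 3.91 and 5.06 CPM and Elane at 30.3, 22.2, 16.6 and 32.4, so both genes were low there too. In the other direction, Retnlg, a resistin-like gene of late neutrophils, was at 171, 213, 338 and 334 CPM, far below the 4082, 3926, 3200 and 4407 of the late-score cells, which were chosen on it. Ly6g, the granulocyte surface antigen used to gate granulocytic MDSCs, was at 380, 375, 484 and 545 CPM, at 16.4 to 20.2 in the azurophil-score cells, and higher in the late-score cells, at 483, 962, 769 and 862. Cebpe was at 583, 615, 610 and 599 CPM, above the 330, 349, 320 and 282 of the azurophil-score cells and the 77.8, 68.5, 66.5 and 54.6 of the late-score cells. The 3 sets were each chosen on genes of their stage, so these are descriptions of neighbouring stages and not tests.

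**Figure D2:**
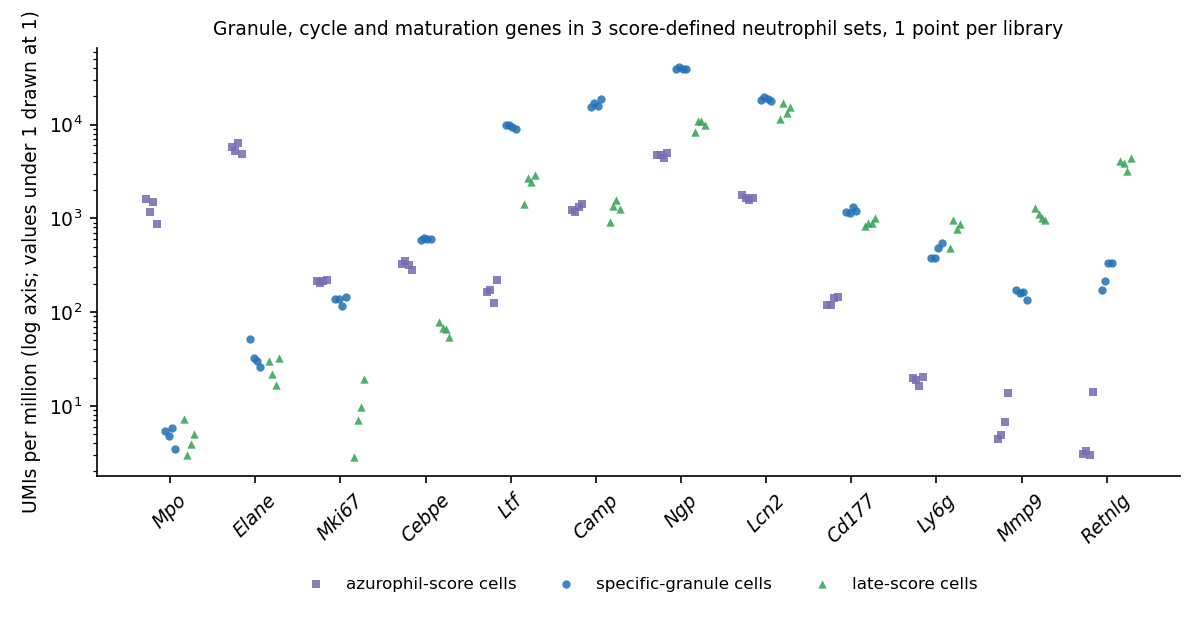
CPM (log axis) of 12 genes in azurophil-score, specific-granule and late-score cells, 1 point per library. Cebpe is highest in the specific-granule cells (583 to 615), Mpo and Elane in the azurophil-score cells, and Retnlg in the late-score cells.

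Division genes were present at an intermediate level. A UMI of Mki67 (the Ki-67 antigen) or Top2a (a topoisomerase of dividing cells) was found after thinning in 21.5% (15.6% to 28.4%) of specific-granule cells of WT+PBS, 25.4% (20.6% to 30.8%) of WT+ISO, 17.3% (12.7% to 22.8%) of KO+PBS and 23.5% (17.8% to 30.0%) of KO+ISO. The azurophil-score cells gave 60.0%, 60.3%, 54.6% and 58.1%, and the late-score cells 1.26%, 2.17%, 4.37% and 2.86%. The 4 thinned shares of the specific-granule cells lay above those of the late-score cells, which should hardly divide, and their intervals overlap one another. Without thinning the specific-granule cells gave 28.7%, 38.3%, 23.5% and 31.6%. The macrophage-score cells gave 20.2%, 24.2%, 20.9% and 16.2% after thinning, a level like that of the specific-granule cells.

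Compared with all other kept cells, 161 of 5240 genes (3.07%) were at least 2-fold higher in all 4 libraries and 475 (9.06%) at least 2-fold lower, and the median log2 ratio over these genes was -0.38. The cells were chosen on correlated genes, so these counts are read as no result. The highest genes outside the rule, by the median log2 ratio over libraries and with a UMI in at least 10% of cells of each library, were Cpa6 (3.55, a carboxypeptidase), St3gal5 (3.39, the GM3 ganglioside synthase), Krt83 (2.87), Ceacam10 (2.78, a secreted CEACAM family protein), Tcp11l2 (2.68), Igsf5, Scrg1, Fbxo10, Rnf144a, Itgb2l (2.42, a β2 integrin-like chain), Ankrd22, Nrp1, Adpgk (2.37, an ADP-dependent glucokinase), Slco4c1, Ly6g (2.36), 1700047M11Rik, Ppp1r42, Asprv1 (2.32, an aspartic protease), Lmo1 and Chil1 (2.28, a chitinase-like protein). Among genes with at least 100 UMIs in the selected cells, the lowest were Elane (-5.11), S100a4 (-5.09), S100a10 (-4.87), Wfdc17 (-4.50) and Ctss (-4.29, cathepsin S). That minimum leaves out genes that were nearly absent, such as Mpo (-5.83) and Ctsg (-6.15, cathepsin G).

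Among further specific granule genes, Lcn2 (lipocalin 2, which binds siderophores) was at 18117, 19818, 18938 and 17973 CPM in WT+PBS, WT+ISO, KO+PBS and KO+ISO, a median log2 ratio of 2.21 over other cells. Olfm4 (olfactomedin 4, which marks a subset of neutrophils) stood 2.88 higher, but only 4.49%, 3.63%, 4.94% and 4.37% of cells had a UMI of it and 5 cells held 69.4% to 96.3% of its UMIs. Anxa1 (annexin A1) stood 2.09 higher and Pglyrp1 (a peptidoglycan recognition protein) 1.76. Not every gene of the list was higher here. Mmp8 (neutrophil collagenase) stood at -0.70 and Hp (haptoglobin) at 0.10. Of the list of 20 genes, 14 outside the rule passed 100 UMIs and 8 of these were at least 2-fold higher in all 4 libraries, with a median of 1.34. The NADPH oxidase, which makes superoxide, had all 6 subunits measured. Its catalytic chain Cybb stood 1.57 higher and the cytosolic subunit Ncf1 1.00 higher, with a list median of 0.75.

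Markers of other lineages were at or near 0, and 9 of the 930 cells (1, 4, 1 and 3 by library) also passed the 10% threshold of the macrophage score. The 8 macrophage genes summed to 11.7, 7.23, 11.6 and 11.8 CPM in WT+PBS, WT+ISO, KO+PBS and KO+ISO, Adgre1 gave 64.7% of them, and C1qc was at 0. The 9 dendritic cell genes summed to 20.2, 19.7, 23.8 and 16.7 CPM, with Cd74 the most abundant. Eosinophil, basophil and mast cell, and erythroid genes summed to at most 5.45, 2.09 and 4.42 CPM in any library, and lymphocyte genes to at most 36.6, mostly Ighm. The monocyte list summed to 1635, 1571, 1605 and 1584 CPM, but Ly6c2, which immature neutrophils also express, gave 99.0% of it, and Ccr2 had 5, 8, 2 and 5 UMIs.

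The cells were not uniform. Of the 930, 101 also passed the 10% threshold of the late score (Retnlg, Mmp9, Mcemp1 and Cxcr2; 18 in WT+PBS, 33 in WT+ISO, 28 in KO+PBS and 22 in KO+ISO). They were left out of the late-score cells described above. Mki67 had 0, 1, 0 and 1 UMIs in them, against 146, 148, 125 and 154 CPM in the remaining specific-granule cells. Cebpe was at 238, 225, 215 and 171 CPM in them and at 605, 645, 643 and 632 in the rest. Lcn2 was at 22058 to 25485 CPM in the 101 and at 17421 to 19381 in the rest. Of the genes of the rule, Camp was lower in the 101 (10156 to 13268 CPM, against 15666 to 19466) and Ltf higher (11514 to 12863 against 8638 to 9780). All cells had to reach the same mean of these genes, so a lower value of one goes with a higher value of another and the pair supports nothing. Mmp8 was at 1085, 1810, 1735 and 2229 CPM in the 101 and at 229, 430, 152 and 241 in the rest. For each of these genes the 4 values of the 101 and the 4 of the rest did not overlap.

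**Figure D3:**
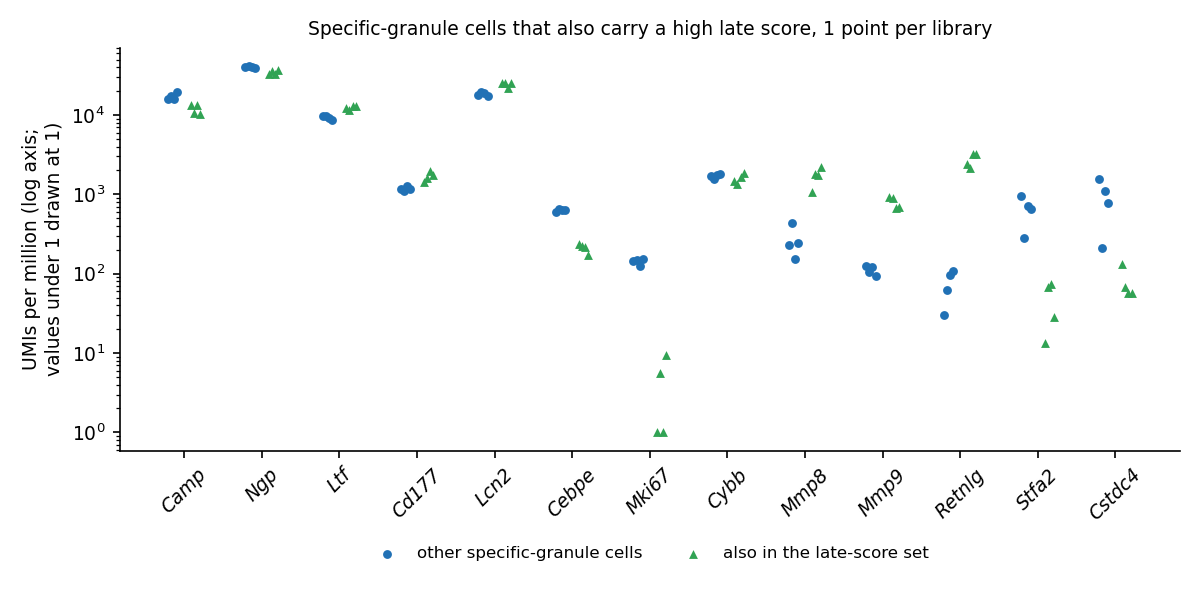
CPM (log axis) in specific-granule cells that also passed the late-score threshold (101 cells) and in the remaining ones, 1 point per library. Mki67 is at 0 to 1 UMIs and Cebpe at 171 to 238 CPM in the first, against 605 to 645 for Cebpe in the rest.

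ISO was set against PBS within each genotype on summed UMIs as CPM. In WT cells, 112 of 3750 genes with at least 100 UMIs (2.99%) were at least 1.5-fold higher with ISO and 44 (1.17%) at least 1.5-fold lower. In KO cells, 83 of 3026 genes (2.74%) were higher and 24 (0.793%) lower by the same measure. The median log2 ratio over all these genes was 0.06 in WT and 0.03 in KO. Genes near 100 UMIs can pass 1.5-fold by counting error. The 4 genes of the rule chose the cells in every library, so their ratios are a description and no result on ISO. Camp was at 0.12 in WT and 0.25 in KO, Ngp at 0.05 and -0.03, Ltf at -0.02 and -0.07, and Cd177 at -0.06 and -0.13. Without these 4, which made up 57.3% to 58.5% of the specific granule list, its other 16 genes summed to 47357, 51153, 49068 and 48190 CPM in WT+PBS, WT+ISO, KO+PBS and KO+ISO. The log2 ratio was 0.11 (0.10 to 0.13) in WT and -0.03 (-0.04 to -0.01) in KO. Of 14 measured genes, 1 passed 1.5-fold in WT and none in KO, with medians of 0.11 and 0.02. That gene was Mmp8, at 280, 528, 275 and 386 CPM, with a log2 ratio of 0.92 (0.75 to 1.09) in WT and 0.49 (0.30 to 0.67) in KO. Its WT ratio was 0.43 when the top 10% was taken in each library separately. Mmp8 was also higher with ISO in all other kept cells, at 454, 774, 455 and 631 CPM in the same order of libraries. Late-score cells had it at 1610, 3197, 1300 and 1719 CPM.

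Among the lists with at least 100 UMIs, the stefin A genes showed the largest ratio in WT. They encode small cytosolic inhibitors of cysteine proteases such as cathepsins and form a cluster of similar copies on chromosome 16. Of the list of 10 symbols, 8 were matched to the files (2 of them through RefSeq synonyms), and their sum was 3728 CPM in WT+PBS, 777 in WT+ISO, 2666 in KO+PBS and 2015 in KO+ISO. WT+ISO was the lowest of the 4. The log2 ratio of ISO to PBS was -2.26 (-2.34 to -2.19) in WT and -0.40 (-0.47 to -0.33) in KO, a difference of -1.86 (-1.96 to -1.76, counting error only). All 6 measured genes were at least 1.5-fold lower in WT and 2 of the 6 in KO, with medians of -2.13 and -0.47.

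Cstdc4 was at 1481, 203, 1008 and 727 CPM in WT+PBS, WT+ISO, KO+PBS and KO+ISO, with ratios of -2.87 (-3.01 to -2.72) in WT and -0.47 (-0.59 to -0.36) in KO. Stfa2 was at 900, 268, 663 and 600 CPM, with ratios of -1.75 (-1.89 to -1.61) and -0.14 (-0.28 to -0.01). Stfa1 was at 287, 26.1, 116 and 73.7 CPM, with ratios of -3.46 (-3.86 to -3.07) and -0.65 (-1.01 to -0.30). In each of the 3 genes WT+ISO was lowest and WT+PBS highest. Stfa2l1 (-2.37 and -0.43), Stfa3 (-1.89 and -0.46) and Csta2 (-1.22 and -0.80) were lower in both pairs. Cstdc5, outside the list and its sum, was at 1813, 311, 1048 and 1044 CPM, above Cstdc4 in each library. Its ratios were -2.54 in WT and 0.00 in KO. Reads of these copies can be assigned to the wrong one, so values of single genes are uncertain. The sum is less open to this among its own genes, but it leaves out Cstdc5. A sum with Cstdc5 was not made. Over the alternatives the WT ratio ran from -4.65 to -2.08 for Stfa1, from -3.40 to -0.88 for Stfa2, from -4.48 to -0.70 for Stfa3, from -3.32 to -1.57 for Stfa2l1 and from -2.93 to -1.78 for Cstdc4.

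A few cells carried much of these transcripts. In each library 5 cells held 48.6%, 40.5%, 48.2% and 39.2% of the stefin A UMIs of WT+PBS, WT+ISO, KO+PBS and KO+ISO. The median depth of those 5 cells was 14080, 9392, 9605 and 7597 UMIs, deeper than the typical specific-granule cell, and none passed the late-score threshold. With the 5% of cells highest in these genes left out of each library, the WT ratio was -2.74 and the KO ratio -0.09, so the WT value did not rest on these cells whereas the KO value moved close to 0. With the top 5% of cells in place of the top 10% the KO ratio was 0.33 and the WT ratio -1.36. The list was also lower with ISO in WT cells of other kinds, at -0.88 in all other kept cells, -0.96 in azurophil-score cells and -0.80 in late-score cells. In KO the same 3 sets gave -0.26, 0.38 and -1.45, so their directions differed.

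A stefin A UMI was found after thinning in 39.5%, 28.1%, 31.2% and 26.0% of the specific-granule cells of WT+PBS, WT+ISO, KO+PBS and KO+ISO, and without thinning in 60.7%, 54.8%, 51.4% and 47.1%. The macrophage-score cells gave 79.2%, 53.2%, 64.5% and 68.0% after thinning, so these transcripts were more widespread there. All other kept cells held the list at 4972, 2695, 4567 and 3826 CPM, with WT+ISO again the lowest. The part of free RNA from them in the values above was not tested.

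The last 120 bases before the start of 5 stefin A genes are shown because these genes moved together (RefSeq, GRCm38.p6). They cover chr16:36277028-36277147 (+ strand), chr16:36408364-36408483 (- strand), chr16:36156691-36156810 (+ strand), chr16:36455393-36455512 (- strand) and chr16:36184092-36184211 (+ strand). Capitals mark the longest run of bases that all 5 share in their 250 upstream bases.
Stfa1: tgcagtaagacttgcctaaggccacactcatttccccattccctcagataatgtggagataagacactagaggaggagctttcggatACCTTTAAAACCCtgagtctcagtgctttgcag
Stfa2: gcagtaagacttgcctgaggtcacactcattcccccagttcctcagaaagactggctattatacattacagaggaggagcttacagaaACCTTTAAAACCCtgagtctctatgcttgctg
Stfa2l1: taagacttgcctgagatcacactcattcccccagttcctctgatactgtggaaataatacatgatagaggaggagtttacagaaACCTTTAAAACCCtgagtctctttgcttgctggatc
Stfa3: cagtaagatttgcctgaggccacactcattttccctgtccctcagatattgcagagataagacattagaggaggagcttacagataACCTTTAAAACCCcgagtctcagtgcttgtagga
Cstdc4: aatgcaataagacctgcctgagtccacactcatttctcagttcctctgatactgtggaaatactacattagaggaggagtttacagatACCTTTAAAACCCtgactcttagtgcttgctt
The shared run ACCTTTAAAACCC is 13 bases long and begins 32 to 36 bases before the start. It was found on either strand in 8 of 32851 upstream windows (0.0244%), and the other 3 genes were Csta3, Cstdc3 and Gm7260. Over the 250 bases, identity between pairs of the 5 ran from 68.7% to 89.4%. These are descriptions of the sequences.

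**Figure D4:**
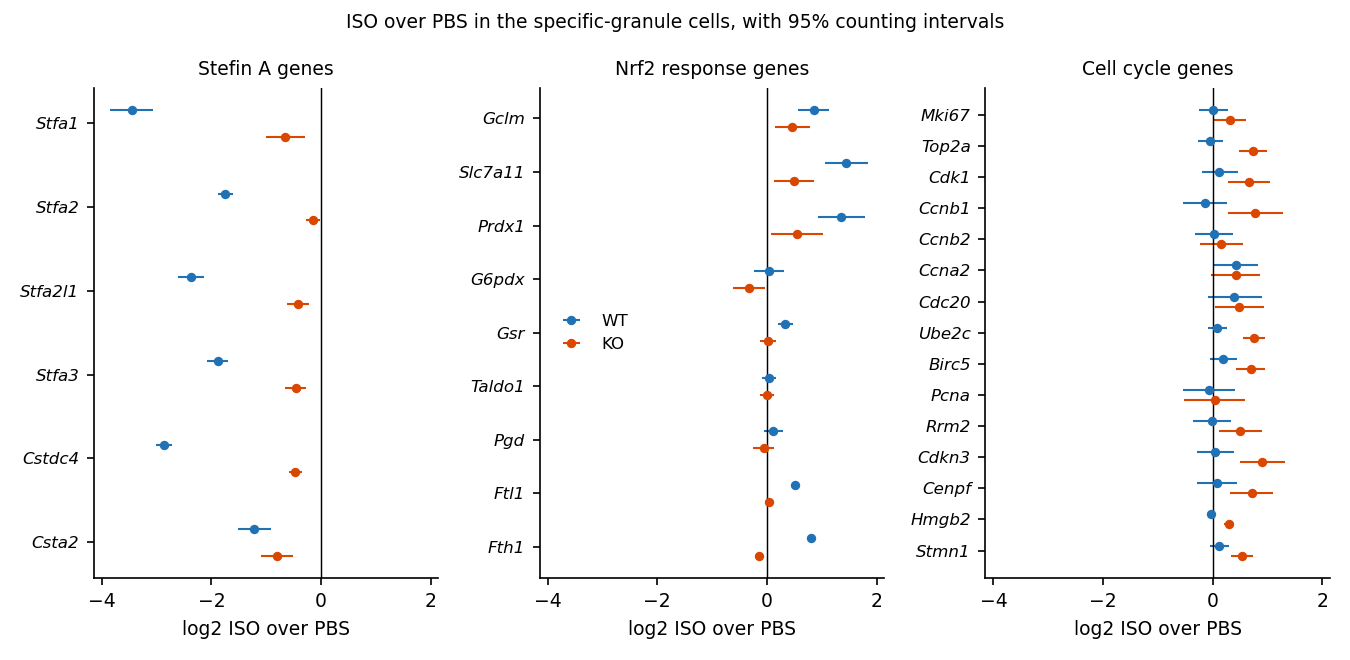
Log2 ratio of ISO to PBS in WT (blue) and KO (orange) specific-granule cells for genes of 3 lists with at least 100 UMIs in both pairs, with 95% counting intervals. The 6 stefin A genes lie between -3.46 and -1.22 in WT, the Nrf2 response genes at or above 0 in WT, and the cell cycle genes near 0 in WT and mostly above 0 in KO.

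Genes of the Nrf2 response were higher with ISO in WT. Nrf2 is a transcription factor that turns on antioxidant, glutathione and iron storage genes. The 16 genes summed to 12911, 18951, 12592 and 12655 CPM in WT+PBS, WT+ISO, KO+PBS and KO+ISO, with WT+ISO above the other 3, which lay close together. The log2 ratio was 0.55 (0.53 to 0.58) in WT and 0.01 (-0.02 to 0.04) in KO. Of 11 measured genes, 5 were at least 1.5-fold higher in WT and none lower, with a median of 0.50, and none of 9 passed in KO, with a median of 0.02. Ftl1 carried 62.3% of the sum, and without it the WT ratio was 0.63. What then remained was mostly Fth1, the other ferritin chain. A ratio without both chains was not computed. The list was also higher with ISO in WT cells of other kinds, at 0.45 in azurophil-score, 0.28 in late-score and 0.22 in all other kept cells, and in KO these 3 sets gave 0.13, 0.05 and 0.18.

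Fth1, the ferritin heavy chain that stores iron, was at 3011, 5233, 2726 and 2462 CPM in WT+PBS, WT+ISO, KO+PBS and KO+ISO, with ratios of 0.80 (0.75 to 0.85) in WT and -0.15 (-0.21 to -0.08) in KO. Ftl1, the light chain, was at 8068, 11445, 8020 and 8282 CPM, with ratios of 0.50 (0.47 to 0.54) and 0.05 (0.01 to 0.08). For both chains WT+ISO was the only library apart from the rest. Slc7a11, the cystine importer that feeds glutathione synthesis, was at 51.4, 140, 74.1 and 104 CPM, with ratios of 1.45 (1.06 to 1.85) and 0.49 (0.13 to 0.86). Gclm, the modifier subunit of glutamate-cysteine ligase, was at 105, 190, 96.6 and 133 CPM, with ratios of 0.85 (0.57 to 1.14) and 0.46 (0.14 to 0.78). For Slc7a11 and Gclm both ISO libraries lay above both PBS libraries. Prdx1, a peroxidase, was at 43.6, 112, 43.8 and 64.0 CPM, with ratios of 1.36 (0.94 to 1.80) and 0.55 (0.08 to 1.02). In WT+PBS 5 cells held 41.1% of its 56 UMIs, and with the top 5% of cells the WT ratio was 2.35 for Prdx1 and 2.04 for Slc7a11. The gene of Nrf2 itself, Nfe2l2, was at 122, 100, 99.2 and 97.3 CPM and its ratio in WT was -0.27 (-0.57 to 0.02).

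Prdx1 and Fth1 are more abundant in other cells of these cultures, and free RNA from them can enter droplets. Prdx1 was at 677, 738, 680 and 722 CPM in all other kept cells of WT+PBS, WT+ISO, KO+PBS and KO+ISO, where its ratio was 0.12 in WT, against 1.36 in the specific-granule cells. S100a4, which was 5.09 lower in the specific-granule cells than elsewhere, was at 23.4 and 23.3 CPM in those of WT+PBS and WT+ISO. In all other kept cells S100a4 was at 618 and 340. Ctss was at 10.1 and 19.7 CPM, and at 210 and 125 in the other cells. From WT+PBS to WT+ISO, the log2 ratio to other cells rose for S100a4 (-4.73 to -3.87), Ctss (-4.38 to -2.67) and Prdx1 (-3.96 to -2.72). It also rose for S100a10 and Wfdc17, and fell for Elane (-4.82 to -5.86). Whether free RNA had a part in the values of Prdx1 and Fth1 was not tested.

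Cell cycle genes differed in the KO pair. The list of 24 summed to 3859, 3926, 3026 and 4091 CPM in WT+PBS, WT+ISO, KO+PBS and KO+ISO, so KO+PBS was the lowest and the other 3 lay close. The log2 ratio was 0.02 (-0.02 to 0.07) in WT and 0.44 (0.38 to 0.49) in KO. None of 19 measured genes passed 1.5-fold in WT, with a median of 0.05. In KO 7 of 15 were at least 1.5-fold higher and none lower, with a median of 0.53. Top2a was at 185, 180, 135 and 225 CPM, with ratios of -0.05 (-0.28 to 0.19) in WT and 0.74 (0.48 to 0.99) in KO. Ube2c, which feeds the anaphase-promoting complex with ubiquitin, was at 290, 308, 222 and 373, with ratios of 0.09 (-0.09 to 0.27) and 0.75 (0.56 to 0.95). Cdkn3, a phosphatase that acts on Cdk2, was at 88.0, 91.2, 53.4 and 100 CPM, with ratios of 0.05 (-0.28 to 0.39) and 0.91 (0.51 to 1.31). In all 3 genes KO+PBS was lowest. With the top 5% of cells the WT list ratio was 0.40, and with equal weight per cell 0.21. In all other kept cells the list was at 0.18 in WT and -0.08 in KO, in azurophil-score cells at -0.06 and -0.03, and in late-score cells at 0.08 (-0.11 to 0.27) and 0.37 (0.22 to 0.52).

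Other genes by the rule of naming were mostly of low level. In WT the 10 highest with ISO were Wfdc17 (2.12, an anti-inflammatory WAP domain protein), Slc7a11, Prdx1, Nipa2 (1.35), Car4 (1.28, a carbonic anhydrase), Spint1 (1.15), Erg28 (1.12), Ifitm1, Tox (1.10) and Cass4 (1.05). By the median over libraries all 10 were lower here than in other kept cells, from -0.52 for Cass4 to -4.50 for Wfdc17. In those other cells of WT, Car4 (-0.81), Cass4 (-0.29) and Wfdc17 were lower with ISO, and the rest were above 0. Ifitm1, an interferon-induced membrane protein, was at 967, 2084, 1647 and 1611 CPM in WT+PBS, WT+ISO, KO+PBS and KO+ISO, so WT+PBS was the low one. Its ratio was 1.11 (1.02 to 1.20) in WT and -0.03 (-0.11 to 0.05) in KO. Wfdc17 had only 22, 185, 51 and 56 UMIs, 5 cells held 40.9%, 46.5%, 60.8% and 51.8% of them, and in WT its ratio was 0.48 (0.06 to 0.92) in azurophil-score, 0.36 (0.24 to 0.47) in late-score and -0.18 in all other kept cells. With the top 20% of cells the WT ratio of Wfdc17 was 0.59 and that of Nipa2 0.57, and the KO ratio of Wfdc17 was -1.40 with the top 10% of each library. The 10 lowest in WT were 7 stefin A genes, Wwox (-1.02), Cxcr4 (-0.87, the receptor that holds neutrophils in the marrow) and Asprv1 (-0.82). With the top 5% of cells Cxcr4 was at -0.18.

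In KO the 10 highest with ISO were Pfdn2 (1.13), Psmd1 (1.01), Lockd (0.94), Spc25 (0.92, a kinetochore protein), Baz1b, Hist1h1e, Cdkn3, Snrpd3, 0610010K14Rik and Ndufc2 (0.88). The 10 lowest were Bnip3 (-1.07, a mitophagy receptor), Egr1 (-0.99, an immediate early factor), Scrg1 (-0.85), Snx13, Csta2, Clec4e, Hlcs, Was, Tet2 and Pdlim5 (-0.69). Some of these values depended on the share of cells taken. Bnip3 was at -0.039 with the top 5%, and with the top 20% Clec4e was at -0.051, Hist1h1e at 0.23 and Snrpd3 at 0.26. Both genotypes shared H1f0, a linker histone of cells that leave the cycle, which was at 83.3 and 142 CPM in WT+PBS and WT+ISO and at 96.6 and 165 in KO+PBS and KO+ISO. Its ratio was 0.77 in each (0.46 to 1.10 and 0.47 to 1.08). Over the alternatives it ran from 0.33 to 1.00 in WT and from 0.29 to 1.08 in KO. Mrps12, Dpy30, Prdx1 and Cdca3 were also higher in both, and Csta2, Scrg1, Hlcs, Stfa1 and Fbxl17 lower in both. The WT ratio of Dpy30 ran from 0.050 to 0.84 over the alternatives.

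Of the remaining lists, few measured genes passed 1.5-fold. The late neutrophil list of 20 genes had ratios of 0.22 (0.19 to 0.25) in WT and -0.10 (-0.13 to -0.07) in KO, with 2 of 15 measured genes higher in WT (Ifitm1 and Slfn4) and none of 14 in KO. Its WT ratio was 0.051 with the top 5% of cells. The 12 azurophil genes gave 0.13 and 0.02, led by Serpinb1a. Of 8 measured in WT, however, 2 (Elane and Fcnb) were at least 1.5-fold lower and none higher, and 1 of 7 was higher in KO. The 6 oxidase genes gave 0.01 and 0.05 and the 14 transcription factors 0.06 and -0.02, with Cebpe at 0.08 (-0.05 to 0.20) and -0.03 (-0.16 to 0.11). The 17 surface receptors gave -0.02 and 0.02. Among the 15 cAMP and CREB genes 14 were in the files, with ratios of -0.10 and 0.08. The interferon-induced list gave 0.34 and 0.28, of which Ifitm3 made up 89.4%.

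Genes that MDSCs use to suppress T cells were led by S100a8 and S100a9, the calprotectin chains. S100a9 was at 159797, 144752, 157478 and 147324 CPM in WT+PBS, WT+ISO, KO+PBS and KO+ISO, with log2 ratios of -0.14 in WT and -0.10 in KO. Of 7 measured genes of this list, 1 (Wfdc17) passed 1.5-fold in WT and none in KO, with medians of -0.07 and -0.04. Nos2 (inducible nitric oxide synthase) was at 0, 2, 0 and 2 UMIs. Of the genes that the study follows, Stat3 had ratios of 0.29 (-0.08 to 0.66) and 0.02 (-0.33 to 0.37), Atpif1, the inhibitor of ATP synthase, 0.22 (0.00 to 0.45) and 0.03 (-0.20 to 0.26), and Acod1, which makes itaconate, 0.18 (-0.96 to 1.42) and -0.67 (-2.25 to 0.79). The 15 BCL2 family genes had ratios of 0.09 (-0.02 to 0.19) in WT and 0.00 (-0.12 to 0.11) in KO. Of 8 measured, 1 was at least 1.5-fold lower in WT and none in KO, with medians of 0.02 and -0.01. That gene, Bcl2l1, an inhibitor of apoptosis, was at 70.1, 44.2, 49.6 and 43.8 CPM, with ratios of -0.67 (-1.08 to -0.25) in WT and -0.18 (-0.68 to 0.32) in KO, and WT+PBS stood apart. Bcl2 was at 4.67, 4.42, 4.51 and 5.56 CPM, with intervals from -1.64 to 1.64 and from -1.35 to 1.999, so a change in it was not detectable at this depth.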

How the data were processed

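The files deposited by the authors hold raw UMI counts, with no normalization, for barcodes called as cells. The matrix headers name Cell Ranger 7.0.0, whereas the submitters' processing notes list Cell Ranger 6.0.0 and Seurat and the build mm10. The treatment of introns is not given in the sources used here. All 12 multiplexing tags were left out of the gene counts.

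Cells were filtered, scaled and selected as the report describes (Python 3.11.15, numpy 2.4.6, scipy 1.17.1). The cells and gene lists were chosen with earlier results of these data known. For each library, a gene's UMIs in the selected cells were added up and divided by all UMIs of these cells (CPM). Genes with at least 100 UMIs over a pair of libraries entered its counts. Named genes were the 20 highest (a UMI in at least 10% of selected cells of each library) and 5 lowest against other cells, both with at least 100 UMIs, the 10 highest and 10 lowest with ISO per genotype and up to 5 each way in both genotypes, with counting intervals clear of 0 and a UMI in at least 10% of cells of the higher library, plus genes of the lists and of the study. A symbol missing from the files was matched through RefSeq synonyms. The selection and the ratios were tested on simulated data. Groups were taken from sample titles. A few genes, among them the check of the knockout, are not reported here.

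The alternatives were other thresholds, filters, scores and scalings, equal weights per cell or score stratum, and lists without their most abundant gene. Leaving out late-score cells, or the 5% of cells highest in a list or gene, or the rule genes of the specific granule list, was added after the data had been seen.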

Additional observations from a re-analysis of the deposited data

Results flagged for a closer look

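A few results pointed in opposite directions with ISO in WT and KO, with each counting interval clear of 0. The difference between genotypes was not tested, since each group is 1 library. The late neutrophil list was at 0.22 in WT and -0.10 in KO on the log2 scale, but at 0.051 in WT with the top 5% of cells and at 0.033 in KO with the top 20%. Clec4e, a lectin receptor of myeloid cells, was at 0.73 in WT and -0.78 in KO, and at -0.051 in KO with the top 20%. Fth1 was at 0.80 in WT and -0.15 in KO, and over the alternatives from 0.47 to 0.89 and from -0.46 to -0.075. Ngp was at 0.049 in WT and -0.025 in KO, but it is a gene that chose the cells and its sign turned under 3 alternatives, so nothing is read from it.

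The multiplexing tags, which no comparison above used, carried signal from other cultures. Of the tag UMIs in the specific-granule cells, the tags of the other 3 cultures made up 7.97% in WT+PBS, 4.48% in WT+ISO, 3.45% in KO+PBS and 14.2% in KO+ISO. Tags with which no culture was labelled made up at most 0.0212%. In all other kept cells the tags of other cultures made up 4.44%, 2.76%, 1.93% and 9.90%. The KO+ISO library stood highest in this share and held the fewest tag UMIs, 104539 in the specific-granule cells and 1291101 in the others. Its share can be high through few tags of its own as well as through many of other cultures. What part these tags had in its values was not tested.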

How the results depend on the processing

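The share ratio of ISO to PBS kept its sign under all 12 alternatives run and stayed within its counting interval, from 0.62 to 0.80 (log2) in WT and from 0.12 to 0.33 in KO. For counts of genes past 1.5-fold (112 higher and 44 lower in WT, 83 higher and 24 lower in KO), a minimum of 50 UMIs gave 351, 132, 277 and 117 in that order, a minimum of 200 gave 30, 20, 28 and 6, and 2-fold gave 12, 8, 2 and 1. Equal weight per cell gave 215 and 71 in WT and 40 lower in KO, the top 10% of each library gave 71 higher in WT and 44 lower in KO, and the top 20% gave 41 lower in KO. The cause of these shifts was not tested.

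The stefin A ratio in WT (-2.26) was -1.36 with the top 5%, -1.45 with the top 20%, -2.08 with the stricter filter on cells (1000 or more genes, mitochondrial UMIs up to 5%), -1.88 with equal weight per cell, -2.11 without the 5% of cells with most UMIs, -1.97 without Cstdc4 and -2.74 without the cells highest in it. In KO (-0.40) the same settings gave 0.33, -0.30, -0.53, -0.29 and -0.70, the last setting gave -0.088, and the top 10% of each library gave -0.57. The Nrf2 ratio in WT (0.55) was 0.47 with the top 5%, 0.41 with the top 20%, 0.46 with the top 10% of each library, 0.49 with median-of-ratios size factors, 0.52 without the deepest cells, 0.50 without late-score cells and 0.63 without Ftl1. In KO (0.01) it was -0.092 with the top 10% of each library, 0.053 with equal weight per cell and -0.064 without Ftl1. The cell cycle ratio in WT (0.02) was 0.40 with the top 5%, -0.079 with the top 10% of each library, 0.13 with the stricter filter, -0.040 with median-of-ratios size factors, 0.21 with equal weight per cell, 0.076 in score strata, 0.24 without the deepest cells, 0.075 without Hmgb2 and 0.089 without the cells highest in it. In KO (0.44) it was 0.62 with the top 5%, 0.23 with the top 20%, 0.34 with the top 10% of each library, 0.37 with equal weight per cell, 0.57 without Hmgb2 and 0.55 without the cells highest in it. The cause of these shifts was not tested.

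Some lists with a counting interval that held 0 changed sign. The oxidase list in WT kept its sign under 6 of 13 alternatives, the BCL2 family list in KO under 8 and the azurophil list in KO under 11. The turns given next are of values with intervals clear of 0. Signs turned for the specific granule list in KO (-0.0039 with the top 20%, -0.015 with size factors) and the late neutrophil list in KO (0.033 with the top 20%). They also turned for Ngp (-0.016 in WT with size factors, and in KO 0.013 with the top 10% of each library and 0.00027 with equal weight per cell). Among stefin A genes in KO, the top 5% gave 0.47 for Cstdc4, 0.21 for Stfa2, 0.85 for Stfa2l1 and 0.49 for Stfa3, leaving out the highest cells gave 0.32, 0.23 and 0.65 for the first 3, and the top 20% gave 0.16 for Stfa1. Leaving out cells that were also azurophil-score cells changed nothing, as there were none. No paired analysis was possible because the 4 groups hold a single library each, and for the same reason no library could be left out. Depth limits genes under 100 UMIs, and intervals hold no difference between cultures.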
